A study of Mus musculus with 10 samples.

Results

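The genes described here are 10 genes of the cerebellar granule cell: Gabra6, Cbln1, Cbln3, Neurod1, Fat2, Zic1, Zic2, En2, Barhl1 and Chn2. They were measured in whole brains of adult male mice on a C57Bl/6J background, 5 carrying a bacterial artificial chromosome (BAC) transgene that overexpresses Glo1 (Tg) and 5 wild-type littermates (WT). All mice were untreated and group housed. Every mouse had an Affymetrix array to itself, and the titles number the arrays of each genotype as biological replicates 1 to 5. Of 19938 genes with a value, these 10 were taken by symbol, with 1 probe set each, and all 10 were measured. The list was chosen by measured values: several of these genes were already known to read low on WT replicate 2, so the values of that array describe the choice and are given without a test.

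Cerebellar granule cells are small excitatory neurons packed in the inner layer of the cerebellar cortex. Their axons, the parallel fibres, run through the molecular layer and synapse on the dendrites of Purkinje cells. The genes listed fall into proteins of granule cell synapses and axons (Gabra6, Cbln1, Cbln3, Fat2), transcription factors of the granule cell lineage (Neurod1, Zic1, Zic2, En2, Barhl1) and an intracellular signalling protein (Chn2). Whole-brain RNA pools all of these cells with the rest of the brain, so fewer granule cells and less RNA per granule cell cannot be told apart.

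Array medians over 28944 probe sets ranged from 7.95 to 8.05 log2 units. WT replicate 2 had the highest median, and its correlation with the others was the lowest on average (mean r = 0.992, against 0.994 to 0.997). The transgene's own gene, Glo1, has 2 probe sets. The brighter read 11.88 to 12.23 on the Tg arrays and 10.27 to 10.75 on the WT arrays, and the other read 11.79 to 12.10 on the Tg arrays and 10.24 to 10.63 on the WT arrays. The genotypes overlapped on neither, and WT replicate 2 was the lowest array on both. Values are log2 units throughout, and 1 unit is a 2-fold difference in array brightness.

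WT replicate 2 read 9 of the 10 genes below every one of the other 9 arrays, and each of these 9 was at least 2-fold lower there. Of all probe sets, 0.235% were at least 2-fold lower on that array and 14.7% lay below all other arrays, and since the choice of genes used that array, nothing is read from these shares. The largest difference was that of Gabra6, a GABA-A receptor alpha subunit made almost only by granule cells. It read 6.03 on WT replicate 2, against 10.84 to 11.29 on the other 9 arrays. The reading on WT replicate 2 was 3.08% of the mean Gabra6 signal of the other arrays, a difference of -5.02 against an SD of 0.17 among those 9. Background was not analysed here. Of the 9 lower genes, Gabra6, Cbln3, Neurod1, En2 and Fat2 read below the median of WT replicate 2 (8.05). Any of them at background there has a share that is an upper bound and a difference that is a lower bound in size. The order among the genes carries that limit. Cbln3 came second of the 10. It encodes a cerebellin that assembles with Cbln1, the granule cell protein that bridges parallel fibres to Purkinje cell receptors. Cbln3 read 7.34 on WT replicate 2 and 11.06 to 11.58 elsewhere, with 6.22% of the signal kept. Cbln1 read 9.09 against 11.12 to 11.50, with 21.5% kept. The difference was thus larger for Cbln3, at -4.01, than for Cbln1, at -2.22. Fat2, a large cadherin found on parallel fibres, read 7.46 against 9.62 to 10.08 and kept 18.3%.

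Of the transcription factors, 4 were low on that array. Neurod1, a basic helix-loop-helix factor of differentiating granule neurons that is also made in the hippocampus, read 7.88 on WT replicate 2 and 10.54 to 11.00 on the other arrays, and kept 13.3%. En2, a homeobox factor that patterns midbrain and cerebellum, read 6.62 against 8.96 to 9.42 and kept 16.5%. Both kept a smaller share than the zinc finger factors Zic1 and Zic2, which mark granule cells and some neurons outside the cerebellum. Zic1 read 9.73 against 11.19 to 11.50 and kept 32.6%. Zic2 read 9.71 against 10.89 to 11.29 and kept 37.9%. Chn2, the Rac-inactivating protein beta-chimaerin, read 10.77 against 11.94 to 12.19 and kept the largest share among the 9 genes that were lower, 40.6%.

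Barhl1 stood apart from the other genes on its list. This homeobox factor acts in migrating granule cell precursors, and its probe set read 7.90 on WT replicate 2, inside the range of 7.62 to 7.97 on the other 9 arrays. Its difference was 0.12, with an SD of 0.10 among those arrays. Barhl1 thus did not follow the other 9 genes there. The Barhl1 probe set also read below the array median on every array, including WT replicate 2 (median 8.05). Whether this probe set detects the transcript in adult brain was not analysed here, so its reading does not bear on whether granule cells make it. Ordered from the largest to the smallest difference, the genes were Gabra6, Cbln3, Neurod1, En2, Fat2, Cbln1, Zic1, Zic2, Chn2 and Barhl1. Among all 19938 genes, ranked in the same way, the first 9 held ranks 1, 2, 6, 7, 8, 9, 13, 17 and 18, while Barhl1 held rank 12279. Some neighbours in this order were close: Neurod1, En2, Fat2 and Cbln1 lay at -2.91, -2.60, -2.45 and -2.22, with SDs among the other arrays of 0.14 to 0.17. Zic2 and Chn2 were also neighbours, at -1.40 with an SD of 0.13 and at -1.30 with an SD of 0.087.

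**Figure D1:**
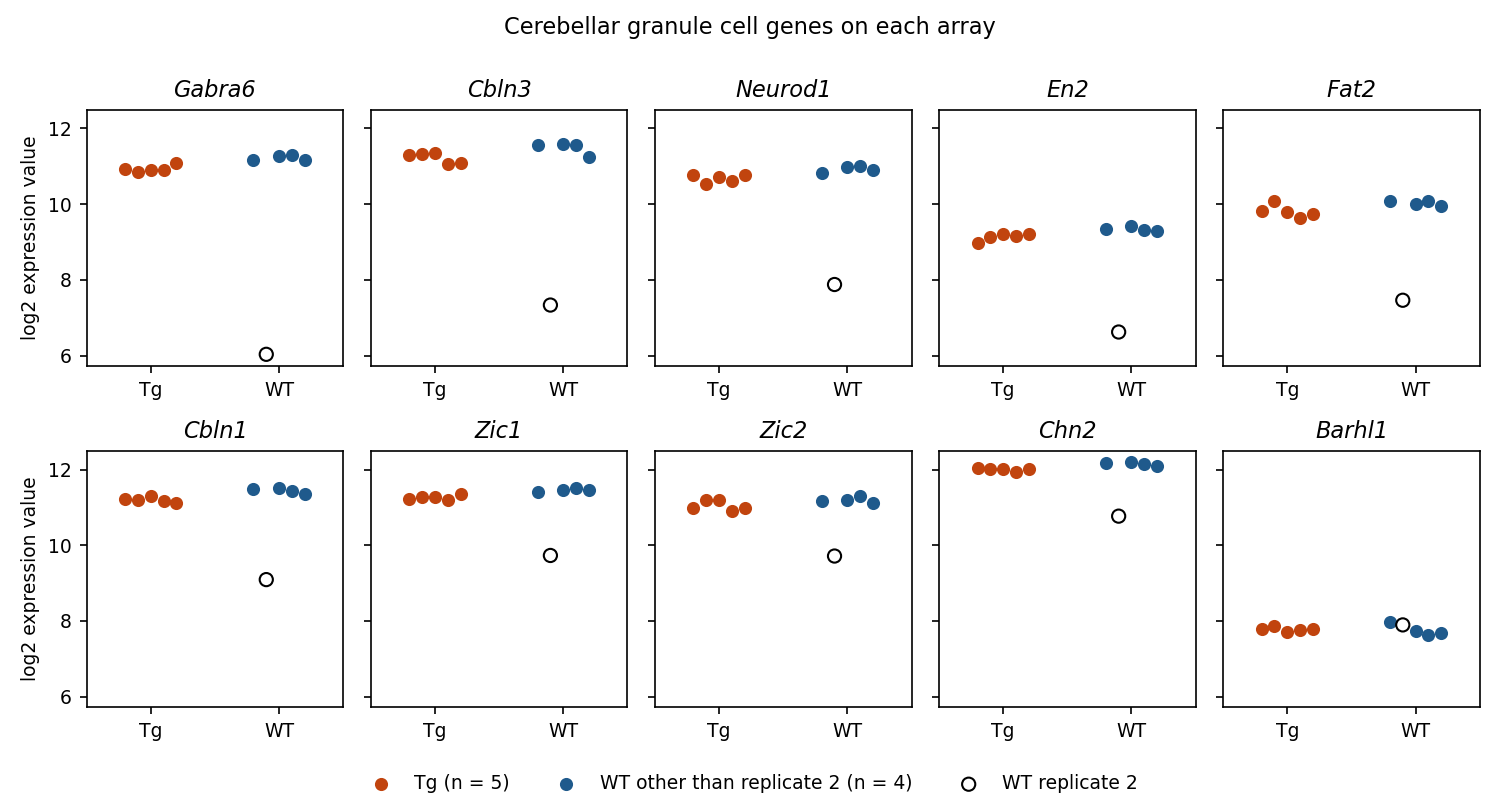
Log2 expression value (vertical axis) of each of the 10 genes on each array, with Tg at the left and WT at the right of each panel; filled points are single arrays and the open circle is WT replicate 2. In every panel except that of Barhl1 the open circle lies below all other points, by the most for Gabra6 at 6.03.

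**Figure D2:**
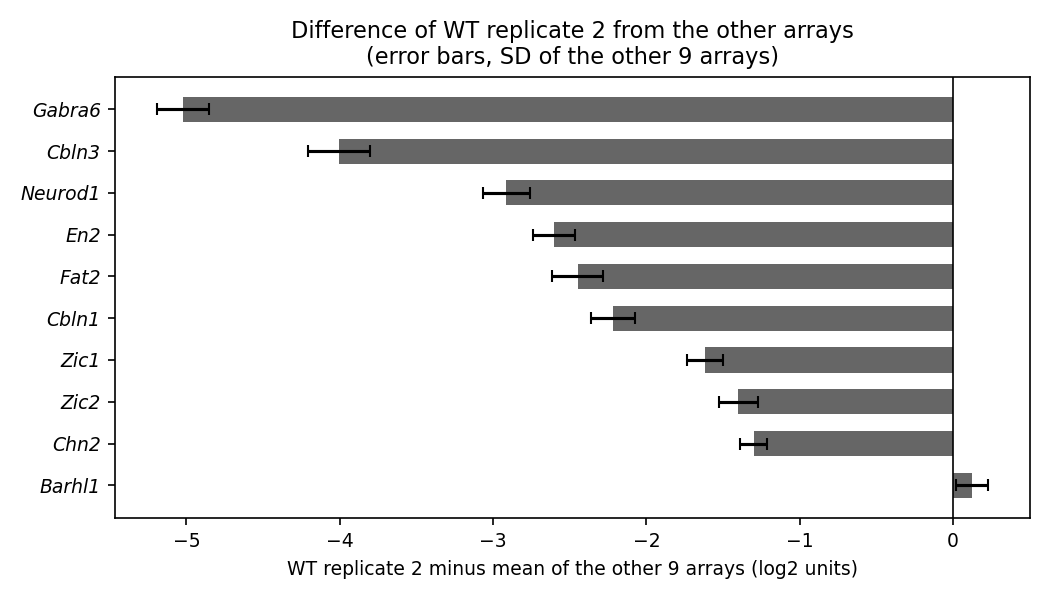
WT replicate 2 minus the mean of the other 9 arrays (horizontal axis, log2 units) for the 10 genes, ordered from the lowest; error bars are the SD of the other 9 arrays. The bars run from -5.02 for Gabra6 to -1.30 for Chn2, and Barhl1 is at 0.12.

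The sequence upstream of the starts of these genes was searched for motifs of factors known in granule neurons. The search describes the sequences, and a link of the motifs to the readings on WT replicate 2 was not tested. RefSeq windows on GRCm38.p6 were found for 7 of the 10 genes, 11 windows in all, and the 250 bases before each start were read on both strands. The motifs were TTGGC, the core of the nuclear factor I half-site, and the E-boxes CAGATG and CAGCTG, bound by basic helix-loop-helix factors. TTGGC was in 7 of the 11 windows, against 41.5% of all 32851 windows of that length, but windows of 1 gene are not independent. Of those 7 windows, 3 are starts of Chn2 and 1 is of Barhl1. Counted by gene, 4 of the 6 low genes with a window hold it (Gabra6, Cbln3, Zic1 and Chn2), and Neurod1 and Fat2 do not. The shares of all windows cannot be set against counts of genes, since a gene with several windows has more chances of a match. A share by gene was not computed. CAGATG was in 0 of 11, against 14.4%, and CAGCTG in 4 of 11, against 13.0%. The 4 windows with CAGCTG are 2 starts of Barhl1 and 2 of Chn2, so it was found in 1 of the 6 low genes. The 2 genes with the largest differences on WT replicate 2 and 1 of the windows of Barhl1, which was not low there, are shown from 5′ to 3′ on the gene's strand, all on the minus strand of the genome, with motif matches in capitals:
Gabra6, chr11:42321073-42321322: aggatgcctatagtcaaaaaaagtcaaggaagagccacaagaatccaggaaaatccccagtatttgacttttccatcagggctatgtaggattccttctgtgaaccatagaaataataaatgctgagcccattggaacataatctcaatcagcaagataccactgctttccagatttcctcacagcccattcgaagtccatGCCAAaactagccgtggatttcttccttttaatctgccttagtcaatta
Cbln3, chr14:55884257-55884506: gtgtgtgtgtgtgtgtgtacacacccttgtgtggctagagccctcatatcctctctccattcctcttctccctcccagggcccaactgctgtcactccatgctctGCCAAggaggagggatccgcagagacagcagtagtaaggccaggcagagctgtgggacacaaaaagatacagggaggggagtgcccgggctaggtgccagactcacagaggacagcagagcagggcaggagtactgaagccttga
Barhl1, chr2:28916669-28916918: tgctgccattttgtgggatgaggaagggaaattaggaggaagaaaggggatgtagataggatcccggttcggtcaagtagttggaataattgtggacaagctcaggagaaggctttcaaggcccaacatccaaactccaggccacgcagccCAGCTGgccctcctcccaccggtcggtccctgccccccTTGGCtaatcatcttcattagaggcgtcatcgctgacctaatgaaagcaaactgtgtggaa
Gabra6 and Cbln3 hold TTGGC on the opposite strand, where it reads GCCAA, 49 bases before the start in Gabra6 and 145 bases before it in Cbln3. The Barhl1 window holds TTGGC 61 bases and CAGCTG 99 bases before its start. A match to these letters was thus present both in genes that were low on WT replicate 2 and in Barhl1, which was not.

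Paralogs of the 10 genes were mostly level on WT replicate 2. Of 18 listed, 16 were measured, and 1 was at least 2-fold lower on that array, with a median difference of 0.0034, against -2.33 for the 10 genes and 0.076 for all probe sets. That paralog was Zic5, a zinc finger factor like Zic1 and Zic2, at -1.27. Next came Barhl2 at -0.84, Fat1, another large cadherin, at -0.60 and Zic4 at -0.26. Barhl2 was thus lower on WT replicate 2 while Barhl1 was not. At the other end lay En1, the other engrailed factor, at 0.18, Fat4 at 0.18, Fat3 at 0.15 and Gabra5, a forebrain GABA-A subunit, at 0.10. Some paralogs thus parted from the listed gene on that array, as with Gabra6 at -5.02 and Gabra5 at 0.10, or En2 at -2.60 and En1 at 0.18. Others were lower along with it, as Zic5 and Zic4 with Zic1 and Zic2, and Fat1 with Fat2. Of the 16 paralogs, 5 lay below all other arrays, against 14.7% of all probe sets. The choice of the 10 genes used that array, so their distance from paralogs in part describes the choice.

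Further genes expressed by granule cells, fixed as a list of 15 and all measured, had smaller differences. On WT replicate 2, 13 of 15 lay below all other arrays and 1 was at least 2-fold lower, with a median of -0.47. The lowest were Zic5 at -1.27, the metabotropic glutamate receptor Grm4 at -0.93, the paired-box factor Pax6 at -0.84 and the calcium-binding protein Calb2 at -0.77. At the other end were Slc17a7, the vesicular glutamate transporter also abundant in cortex, at 0.30, the precursor factor Atoh1 at -0.03, the extrasynaptic GABA-A subunit Gabrd at -0.16 and Zic4 at -0.26. Purkinje cell genes, of another cerebellar neuron, were low there as well: 8 of 9 measured lay below all other arrays and 3 were at least 2-fold lower, with a median of -0.98. Ppp1r17, a phosphatase inhibitor, was at -3.70, Car8, a carbonic anhydrase-related protein, at -3.15, Pcp2 at -1.73 and Lhx1 at -0.99. The Purkinje cell genes with the smallest differences were Pcp4, which is also made in forebrain, at 0.01, then Rora at -0.37, Slc1a6 at -0.66 and Homer3 at -0.71.

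Lists for other cells and regions gave the setting of these values. Genes of other cerebellar cells (6 measured) had a median difference of -0.52 on WT replicate 2, and 2 of them were at least 2-fold lower: Tfap2b at -1.20 and Eomes, of unipolar brush cells and olfactory bulb, at -1.11. The median was 0.15 for dentate gyrus granule cells (5 measured), 0.13 for midbrain and hindbrain (8), -0.091 for olfactory bulb (4), 0.045 for thalamus (5) and 0.26 for forebrain (7). It was -0.054 for astrocytes (6), 0.0045 for oligodendrocytes (5), 0.18 for microglia (6) and -0.12 for choroid plexus (4). In these 9 lists, none of them particular to the cerebellum, 0 genes were at least 2-fold lower there, against 0.235% of all probe sets. Lists this short would rarely hold such a gene at that share, so nothing is read from the 0. Below all other arrays lay 3 of 6 astrocyte, 2 of 4 choroid plexus and 1 of 5 thalamus genes, and 0 in the rest of these lists. For other cerebellar cells it was 4 of 6, and for all probe sets 14.7%. The 3 lists with a median under -0.4, apart from the 10 genes, were those of cerebellar cells. Forebrain genes had the highest median, and all 7 were higher than the mean of the other arrays, by 0.079 to 0.38.

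**Figure D3:**
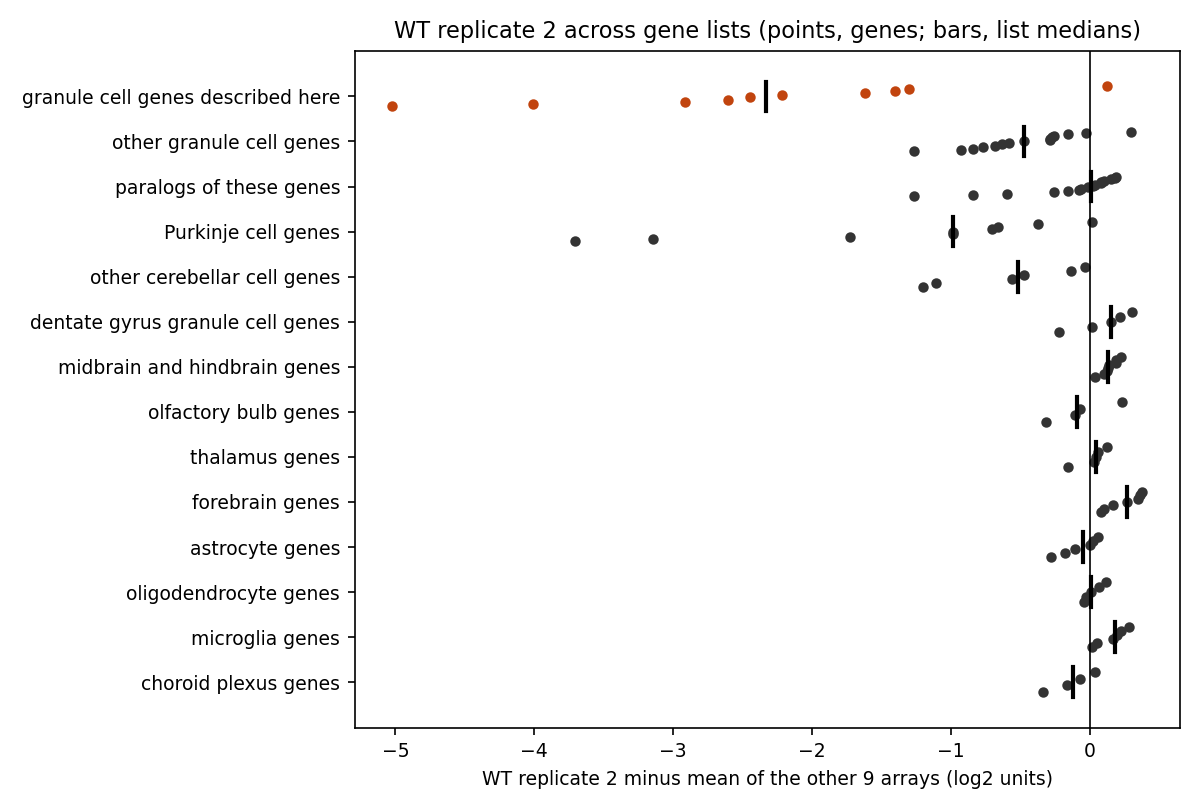
WT replicate 2 minus the mean of the other 9 arrays (horizontal axis, log2 units) for each measured gene of 14 lists; points are genes and vertical bars are list medians. The granule cell genes described here have a median of -2.33, Purkinje cell genes of -0.98 and forebrain genes of 0.26.

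Tg brains were next set against the 4 WT brains other than replicate 2, to ask whether the granule cell genes differed by genotype once that array was left aside. The same 9 arrays served as the comparison for WT replicate 2 above, so both sets of differences share them. The means of 9 of the 10 genes were lower in Tg, by 0.14 to 0.29 log2 units, where 45.8% of all probe sets had a lower and 54.2% a higher mean, and none passed limma's Benjamini-Hochberg adjusted threshold of 0.05 over all 28944 probe sets (lowest adjusted p = 0.274). In that comparison 0.0311% of probe sets passed as lower and 0.00691% as higher. At an unadjusted limma p under 0.05, 8 of the 10 genes were lower and 0 higher, against 3.95% of all probe sets lower and 7.07% higher. For 6 genes all 5 Tg values lay below all 4 WT values, against 1.24% of all probe sets, and for 0 genes all Tg values lay above, against 1.86%. Two-sided exact permutation tests over 5 and 4 arrays cannot give less than p = 0.0159, which those 6 genes reached. The genes were chosen with results of these arrays already known, this contrast included, so these shares are no independent support.

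Among the synaptic genes, Gabra6 read 10.93, 10.84, 10.89, 10.90 and 11.08 in Tg replicates 1 to 5, against 11.16, 11.26, 11.29 and 11.17 in WT replicates 1, 3, 4 and 5. The groups did not overlap, with Tg replicate 5 the highest of its group. The difference was -0.29 (SE 0.054, 95% confidence interval -0.41 to -0.17, limma adjusted p = 0.274), or 18.2% lower signal in Tg. Cbln1 read 11.22, 11.20, 11.29, 11.17 and 11.12 in Tg, against 11.49, 11.50, 11.45 and 11.36 in WT. Again the groups did not overlap, and the difference was -0.25 (-0.35 to -0.15, limma adjusted p = 0.274). Cbln3 read 11.29, 11.32, 11.34, 11.06 and 11.08 in Tg, against 11.57, 11.58, 11.57 and 11.25 in WT. WT replicate 5 lay among the Tg values, and the difference of -0.28 (-0.46 to -0.087) had a limma adjusted p of 0.407. Fat2 read 9.82, 10.08, 9.80, 9.62 and 9.75 in Tg, against 10.07, 10.01, 10.08 and 9.96 in WT. Tg replicate 2 lay among the WT values and the other 4 Tg values lay below them (-0.22, -0.39 to -0.044).

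Among the transcription factors, Neurod1 read 10.76, 10.54, 10.73, 10.62 and 10.78 in Tg, against 10.83, 10.98, 11.00 and 10.89 in WT. Every Tg value lay below every WT value, by 0.24 on average (interval of the difference -0.37 to -0.11). En2 read 8.96, 9.12, 9.21, 9.15 and 9.22 in Tg, against 9.34, 9.42, 9.32 and 9.29 in WT. Its groups did not overlap either (-0.21, -0.33 to -0.085). Zic1 read 11.21, 11.28, 11.27, 11.19 and 11.34 in Tg, against 11.40, 11.46, 11.50 and 11.46 in WT. That too left no overlap (-0.20, -0.29 to -0.10). Zic2 read 10.99, 11.20, 11.19, 10.89 and 11.00 in Tg, against 11.17, 11.20, 11.29 and 11.12 in WT. Tg replicates 2 and 3 lay among the WT values, and the interval of its difference reached past 0 (-0.14, -0.29 to 0.0043). Barhl1 read 7.80, 7.86, 7.70, 7.76 and 7.80 in Tg, against 7.97, 7.74, 7.62 and 7.70 in WT. Its Tg values lay inside the WT range, with a difference of 0.03 (-0.12 to 0.17, limma adjusted p = 0.885), and that sign turned under quantile normalization (-0.0016) and without WT replicate 4 (-0.020).

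Chn2 read 12.03, 12.01, 12.01, 11.94 and 12.01 in Tg, against 12.18, 12.19, 12.15 and 12.09 in WT. The groups did not overlap, and the difference was the second smallest of the 9 that were lower (-0.15, -0.23 to -0.067). Chn2 lies on chromosome 6, which also holds a stretch of 12 measured genes, bounded from earlier results of these data and ending at Foxp2, of which 9 passed the adjusted limma threshold as lower in Tg in this contrast. In gene order 298 measured genes lie between Chn2 and Foxp2. The mean over the 10 genes was 10.51 ± 0.046 in Tg (SD, n = 5) and 10.70 ± 0.049 in the 4 WT arrays (SD, n = 4). It ranged from 10.43 to 10.54 in Tg and from 10.63 to 10.73 in WT.

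With WT replicate 2 included, the sign of every one of the 10 differences turned. Means of 9 genes were then higher in Tg, by 0.13 to 0.75, and Barhl1 was at -0.0011, where 47.8% of all probe sets had a higher and 52.2% a lower mean. Of the 10 genes, 0 passed the adjusted limma threshold (0.0276% of probe sets passed as lower and 0.00691% as higher), and 0 had an unadjusted limma p under 0.05 (1.23% of probe sets lower and 0.985% higher). All 5 Tg values lay below all 5 WT values for 0 of 10 genes, against 0.311% of probe sets. For Gabra6 the difference was 0.75 with an interval of -1.14 to 2.63, and for Cbln3 it was 0.56 (-0.97 to 2.08). The mean over the 10 genes was then 10.51 in Tg (10.43 to 10.54) and 10.21 in WT (8.25 to 10.73), a difference of 0.29, against -0.19 without WT replicate 2. Weighting the arrays by their residual spread gave -0.11 over all 10 arrays. The direction of the genotype difference in these genes was therefore set by whether that array was used at full weight.

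**Figure D4:**
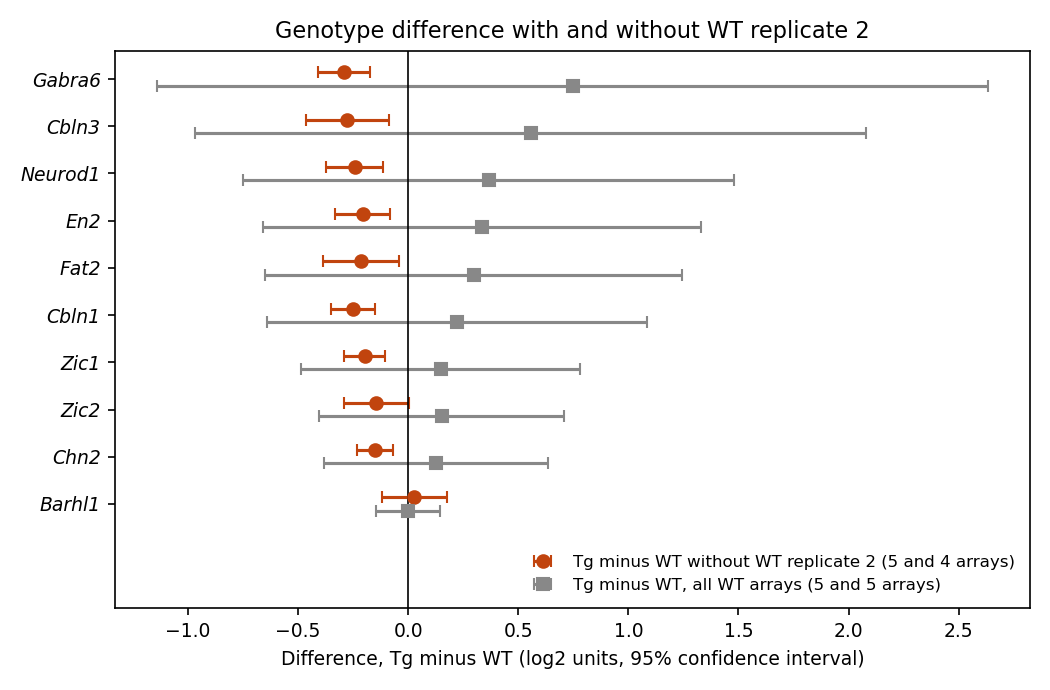
Difference between genotypes, Tg minus WT (horizontal axis, log2 units), for each of the 10 genes; points are limma estimates and bars 95% confidence intervals, without WT replicate 2 (circles) and with all arrays (squares). Circles of 9 genes lie between -0.29 and -0.14, and the squares of the same genes lie between 0.13 and 0.75 with intervals that cross 0.

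Across the 9 arrays other than WT replicate 2, the genes that were low on that array were compared with each other. Pearson's r was above 0 for all 36 pairs of the 9 genes, from 0.41 for Neurod1 and Fat2 to 0.94 for Cbln1 and Chn2, with a median of 0.76 (n = 9 arrays). These arrays include both genotypes, and the genotype difference, known when the genes were chosen, enters each r. After subtracting each genotype's mean, the median r was 0.22, with 26 of 36 pairs above 0 and a range of -0.37 to 0.88. Pairs with Barhl1 had a median r of -0.15 before that step and -0.064 after it. Among these 36 within-genotype values, Cbln1 and Cbln3 had the highest r and Neurod1 and Fat2 the lowest. Tg replicate 4 had the lowest mean over the 10 genes, at 10.43, and was the lowest of all 9 arrays for Cbln3, Fat2, Zic1, Zic2 and Chn2. WT replicate 5 had the lowest mean of the 4 WT arrays, at 10.63.

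**Figure D5:**
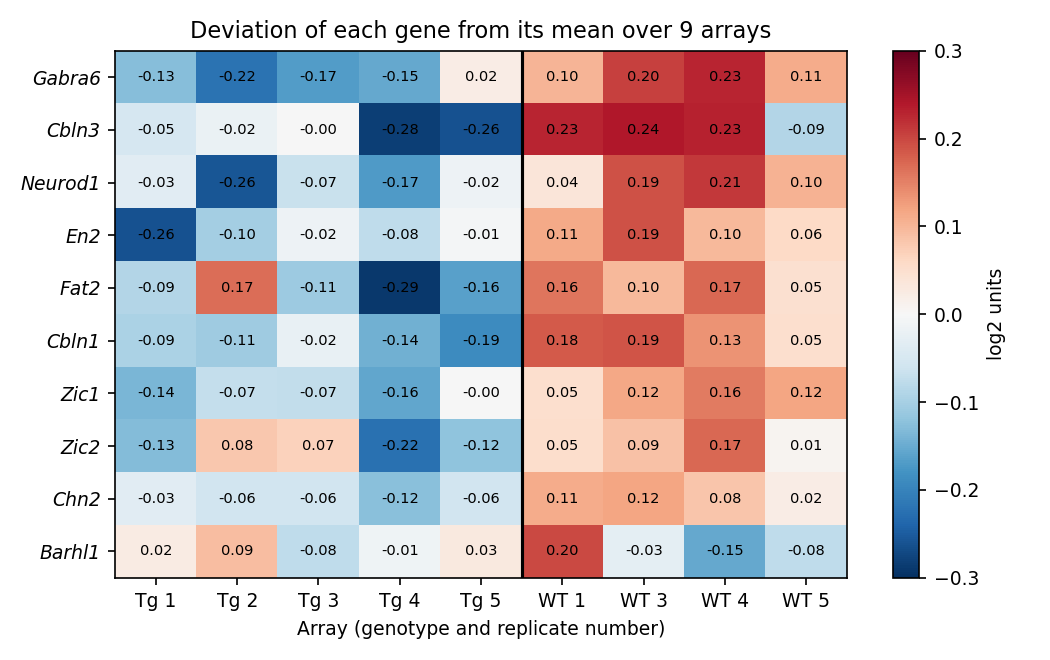
Deviation of each gene from its own mean over the 9 arrays other than WT replicate 2 (colour and printed number, log2 units), with the 5 Tg arrays at the left of the line and the 4 WT arrays at its right. Most Tg cells of the 9 genes other than Barhl1 are below 0 and most WT cells above it, with exceptions such as Fat2 in Tg replicate 2 and Cbln3 in WT replicate 5.

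The genes outside the list whose values over these 9 arrays were most like the mean of the 10 genes were Trap1 (r = 0.97), Slc22a15 (0.97), Phf14 (0.96), Doc2b (0.96), Lrrc41 (0.96) and Car8 (0.95), among 12899 bright genes whose median r was 0.17. Each had all 5 Tg values below all 4 WT values, and the genotype difference enters each r. Of these 6, Car8 was at least 2-fold lower on WT replicate 2, at -3.15. The other 5 lay between -0.16 and 0.42 there, with Phf14, one of the chromosome 6 genes low in Tg, at 0.42. Trap1 at -0.12 and Doc2b at -0.16 also lay below all other arrays. In all, 33 genes had an r above 0.9, and all 33 had a lower mean in Tg. On WT replicate 2, 6 of these 33 were at least 2-fold lower, against 26 of all 12899. The bright genes outside the list with the largest differences on that array were Ppp1r17 (-3.70), Arhgef33 (-3.39), Car8 (-3.15), Cnpy1 (-2.08), Il16 (-1.78) and Pcp2 (-1.73). Without that array their Tg means were lower than the WT means by 0.14 to 0.26, and none passed (limma adjusted p = 0.407 for each).

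Other lists were read in the same contrast of Tg with the 4 WT brains, where 45.8% of all probe sets had a lower mean in Tg and their median difference was 0.0083, against -0.21 for the 10 genes. No gene of any list passed the adjusted limma threshold. Of the other granule cell genes, 12 of 15 had lower means in Tg with a median of -0.040. Zic5 was at -0.19, Cadps2, a vesicle priming protein, at -0.14 and Etv1 at -0.09, each with no overlap between the groups. These were 3 of the 15, where 1.24% of all probe sets had all Tg values below all WT values. At an unadjusted limma p under 0.05, 4 of the 15 were lower and 1 was higher, Atoh1 at 0.13. Of all probe sets, 3.95% were lower at that level and 7.07% higher. Cadps2 lies on chromosome 6, outside the low stretch, with 24 measured genes between it and Foxp2. The values were -0.03 for Grm4 and -0.01 for Calb2. Of the Purkinje cell genes, 9 of 9 had lower means, with a median of -0.14. At an unadjusted limma p under 0.05, 7 of these 9 were lower and 0 higher. For 2 of them all Tg values lay below all WT values. The mean of that list on each array was 10.33 to 10.46 in Tg and 10.44 to 10.58 in WT. Paralogs of the 10 genes had a median of -0.010, with 9 of 16 lower.

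Lists of regions outside the cerebellum were read as well. All 4 olfactory bulb genes had higher means in Tg, with a median of 0.35, and the mean of that list was 7.29 to 8.09 in Tg and 7.14 to 7.48 in WT. All 8 midbrain and hindbrain genes had higher means as well, with a median of 0.085 and list means of 7.85 to 8.02 in Tg and 7.66 to 7.89 in WT. The part of these lists, and of the Purkinje cell list, in the difference of the granule cell genes was not tested. The median was -0.032 for other cerebellar cell genes, with 3 of 6 lower, and Eomes was at 0.38. For the remaining lists the medians were 0.022 for dentate gyrus granule cells, -0.023 for thalamus, -0.032 for forebrain, -0.0011 for astrocytes, -0.023 for oligodendrocytes, 0.014 for microglia and -0.017 for choroid plexus.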

How the data were processed

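Whole-brain RNA of 10 mice was extracted with TRIzol and purified with RNeasy kits before biotin labelling, per the labels' protocols. The deposited values are the authors' log2 expression values (3.28 to 14.7 over 35556 rows), used as deposited. The submitters' processing notes name Affymetrix Expression Console 1.1.2, and how it normalized the arrays is not stated there. Brightness ratios can understate differences in RNA.

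Control rows (6612) were left out and 28944 probe sets tested. The platform annotation gave 1 gene to 21789 of them. Of these, 21698 were matched to GRCm38.p6 by Entrez identifier and given its symbol. Each gene was represented by its brightest probe set; each of the 10 genes had 1. Tg and WT were compared with limma 3.58.1 (lmFit, eBayes, no covariate) under R 4.3.3. P-values were adjusted by the Benjamini-Hochberg method over all probe sets, with a threshold of 0.05, without WT replicate 2 and with all arrays. Single genes also had two-sided exact permutation tests. The fitting code was first tested on simulated data. WT replicate 2 was described against the mean of the other 9 arrays.

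The members, gene lists and tests were chosen with earlier results of these data known. All 10 genes were named, with up to 4 genes of largest and smallest difference in the granule cell, paralog and Purkinje cell lists, and 6 genes each by likeness and by difference on WT replicate 2 among the upper 60% of probe sets by mean. Cadps2, Etv1, Eomes, Tfap2b and Glo1 were named outside that rule, after their values were seen. The lists held genes of other granule cell, paralog, Purkinje, other cerebellar, dentate gyrus, midbrain and hindbrain, olfactory bulb, thalamus, forebrain, astrocyte, oligodendrocyte, microglia and choroid plexus classes. Motifs were searched after the values were seen. Alternatives covered normalization, dim probe sets, variance model, array weights, replicate number, serial number in the labels, summary per gene and leaving out each array. Precision is limited by having 5 arrays or fewer in a group, and p-values measure the spread between these mice.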

Additional observations from a re-analysis of the deposited data

Results flagged for a closer look

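In the WT group of 5 arrays, replicate 2 was far below the others for 9 of the 10 genes, by a gap of at least 0.896 of the group's range, where 0.710 is Dixon's limit for 5 values. Its values were 6.03 for Gabra6, 9.09 for Cbln1, 7.34 for Cbln3, 7.88 for Neurod1, 7.46 for Fat2, 9.73 for Zic1, 9.71 for Zic2, 6.62 for En2 and 10.77 for Chn2. The mean over the 10 genes was 8.25 on that array. In the Tg group, replicate 4 passed that limit for Chn2 alone, with a gap of 0.734 of a narrow range. It read 11.94, against 12.01 to 12.03 on the other Tg arrays. Chance marks about 1 in 20 groups, and 22 groups were examined, with 11 marked. The 10 flags of WT replicate 2 are of 1 array and are not independent of each other. The choice of genes used low readings on that array, so these flags describe the choice and are no test. The chance rate does not apply to them.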

How the results depend on the processing

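Of the alternatives run, none brought any of the 10 genes past the adjusted limma threshold, with or without WT replicate 2. The mean difference of the 10 genes without WT replicate 2 stayed below 0, from -0.21 with median centring to -0.18 with quantile normalization, and from -0.22 to -0.18 with single arrays left out. Leaving out Tg replicate 5 took the adjusted p of Gabra6 to 0.0695, the lowest of any setting. The count of genes lower at an unadjusted limma p under 0.05 was 8 or 9 in the 17 alternatives run for it. The count of genes with no overlap was 6 or 7 in the 11 run for it (2 scalings and 9 single arrays left out). Leaving out an array cannot lower that second count, so only the 2 scalings could have, and each gave 6. Both counts were tried after the data were seen. The Barhl1 difference of 0.03 turned to -0.0016 with quantile normalization, and with single arrays left out it lay between -0.020 (WT replicate 4 omitted) and 0.098 (WT replicate 1 omitted). With all arrays the mean difference of 0.29 turned to -0.11 with array weights, and ranged from -0.19, without WT replicate 2, to 0.43 with single arrays left out. The mean difference on WT replicate 2 stayed between -2.45 and -2.32 in the 14 alternatives run for it (scaling, summary per gene, comparison arrays and single arrays left out). The summary per gene could not change it, since each of the 10 genes had 1 probe set.

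The replicate numbers shared by the genotypes do not pair the mice by any label, and deviations of same-numbered arrays correlated from -0.46 to 0.35 without WT replicate 2. With the replicate number as a block the count of genes past the threshold was 0, the mean difference -0.20, and 0.29 with all arrays. Without WT replicate 2, Tg replicate 2 is alone in its block and adds nothing to the difference. The -0.20 is thus the same value as with Tg replicate 2 left out, and is not a separate check.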
